A study of Mus musculus with 30 samples.

Results

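Olfactory epithelium labelled as coming from SR-A mutant mice was compared with epithelium labelled wild type at 8 h, the time the labels write as "8 hpO". The comparison used 6 of the 30 arrays of the series, 3 per labelled genotype, chosen by genotype and time in the array titles. The series follows mouse olfactory epithelium at 0, 2, 8, 16 and 48 h around bilateral bulbectomy, an operation that takes out the olfactory bulbs. Each array carried biotin-labelled total RNA from microdissected epithelium, and the mice were 6 weeks old. The labels give no strain, no description of the mutated allele, no treatment beyond the time, and do not say whether each array held a separate mouse or whether the 0 h mice were operated. The p-values therefore measure the spread between arrays, which may be technical. Genotype differences at 0, 16 and 48 h, from 18 other arrays, are given where they bear on the 8 h values.

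SR-A is the class A macrophage scavenger receptor, a trimeric cell-surface protein encoded by Msr1 that takes up modified lipoproteins, bacterial products and dying cells. The olfactory epithelium holds olfactory sensory neurons, sustentacular supporting cells, gland ducts and basal stem cells, with resident and incoming macrophages. Removing the bulb cuts the axons of the sensory neurons, which then die, are cleared by macrophages and are replaced from the basal cells.

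The log2 signal at the 3' end of the Gapdh control minus that at its 5' end lay between -0.31 and -0.13, the same range as in the 27 arrays that entered the fit, and reached 0.15 to 5.59 in the 3 SR-A mutant 2 h arrays, which were left out of it. The same quantity for the actin control lay between 0.45 and 0.70 at 8 h, and mutant-labelled replicate 1, at 0.45, was the lowest of the 27 arrays. Wild-type-labelled replicate 3 lay farthest from its group, with an SD of its deviations of 0.247 on the log2 scale. The other wild-type-labelled arrays gave 0.217 and 0.210, so each of that label spread more than the mutant-labelled arrays, at 0.156 to 0.186. Xist was at or under the signal floor of 115.9 on all 6 arrays and the Y-linked Eif2s3y lay between 1620.2 and 2332.7, so the arrays of both labels carried the same sex markers. Of the defining markers, Omp of mature sensory neurons gave 26602.7 to 35152.4. The basal cell keratins Krt5, Krt14 and Krt15 were at or under the floor on all 6 arrays, and the macrophage marker Adgre1 on 5 of them.

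The targeted gene did not check the labels. The brighter Msr1 probe set (chr8:39543232-39642750, GRCm38.p6, for the gene) gave signals of 467.7, 396.4 and 488.1 in the mutant-labelled arrays and 115.9, 94.8 and 182.9 in the wild-type-labelled arrays. The signal was thus higher in every array labelled mutant, and the groups did not overlap. The means were 451 ± 48.1 and 131 ± 46.0 (SD, n = 3), at least 3.33-fold higher in the mutant-labelled arrays since wild-type-labelled arrays lay at or under the floor. An exact permutation test gave p = 0.1, two-sided, the smallest that 3 against 3 arrays allow. The dimmer probe set gave 252 ± 41.6 and 76.3 ± 36.9, at least 2.14-fold. In a limma fit without the filter on low signals both probe sets passed, with an adjusted p of 0.000972 each. At 0, 16 and 48 h the brighter probe set was again higher in the mutant-labelled arrays, by 1.79, 1.46 and 0.81 on the log2 scale. The sources used here do not say where these probes lie relative to the mutated part of the gene, and Msr1 was too dim to be among the tested probe sets. Every direction below is that of the mutant-labelled arrays relative to the wild-type-labelled arrays.

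At 8 h the labelled genotypes differed in many genes by small amounts. Of 6917 tested probe sets 475 (6.87%) passed an adjusted p of 0.05 in limma, 226 higher (3.27%) and 249 lower (3.6%) in the mutant-labelled arrays. Their median absolute difference was 0.53 on the log2 scale, and 29 exceeded 2-fold, 19 higher and 10 lower. The 3 and 3 arrays did not overlap for 462 of the 475, against 27.2% of all tested probe sets. The count rested on single arrays: without mutant-labelled replicate 1, 2 or 3 it was 258, 109 and 148, and without wild-type-labelled replicate 3 it was 118, of which 110 were among the 475. The fit took its estimate of the spread from 27 arrays; a fit of only the 6 arrays called 13 probe sets (1398 at an unadjusted p under 0.05), and a fit of all 30 called 203.

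Some genes differed by a similar amount at every time measured. At 0, 8, 16 and 48 h, on separate arrays, 72 probe sets (1.04%) passed in the same direction, 30 higher and 42 lower. Ocel1, an occludin/ELL domain-containing protein (chr8:71371298-71373689), gave 1690.0, 1663.7 and 1655.5 in the mutant-labelled and 580.3, 495.1 and 443.3 in the wild-type-labelled arrays. The mutant-labelled arrays lay close together and far above the others. Its log2 difference was 1.73 ± 0.12 (SE; adjusted p = 4.12e-09), and at 0, 16 and 48 h it was 1.74, 1.66 and 1.60.

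Colgalt1, which adds galactose to hydroxylysines of collagen (chr8:71610042-71624911), gave 620.5, 730.1 and 809.2 against 1942.4, 2041.7 and 1405.6. All 3 mutant-labelled arrays lay below all 3 others, and the difference was -1.31 ± 0.15 (adjusted p = 3e-05). Nnt, the mitochondrial transhydrogenase that supplies NADPH (chr13:119335527-119409257), gave 239.7, 317.7 and 301.2 against 730.0, 591.5 and 792.2. This again separated the groups, by -1.30 ± 0.16 (adjusted p = 5.41e-05), with -1.31, -1.60 and -1.09 at 0, 16 and 48 h. Ptbp2, a neuronal splicing regulator (chr3:119718741-119784647), gave 264.1, 241.9 and 238.8 against 591.9, 574.8 and 708.2, a difference of -1.33 ± 0.25 (adjusted p = 0.00474). Its other tested probe set gave -0.45. Ocel1, Ptbp2, Nnt and Colgalt1 were the 4 of the genes named here that also passed in the fit of only the 6 arrays.

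Further genes that differed at all 4 times did so by less. Higher at 8 h were Agap3, a GTPase-activating protein, by 0.93 ± 0.14, the acylphosphatase Acyp2 by 0.86 ± 0.16, the spliceosome protein Snrpd3 by 0.83 ± 0.15, the proteasome lid subunit Sem1 by 0.57 ± 0.08 and the mitochondrial ferredoxin Fdx1 by 0.48 ± 0.10. Lower were the coactivator Ncoa6 (-0.79 ± 0.12), the lipid flippase subunit Tmem30b (-0.69 ± 0.14), the translation initiation factor Eif5b (-0.68 ± 0.12) and the transcription factor subunit Gabpa (-0.54 ± 0.10). Each of these 9 kept its call when any 1 of the 6 arrays was left out. Probe sets of the same gene disagreed in places. Sf3b1, a splicing factor, gave -0.54 and 0.59, and the other Tmem30b probe set gave -0.03. The ribosomal protein gene Rpl19 gave 0.42 and -1.90, both past the threshold.

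**Figure D1:**
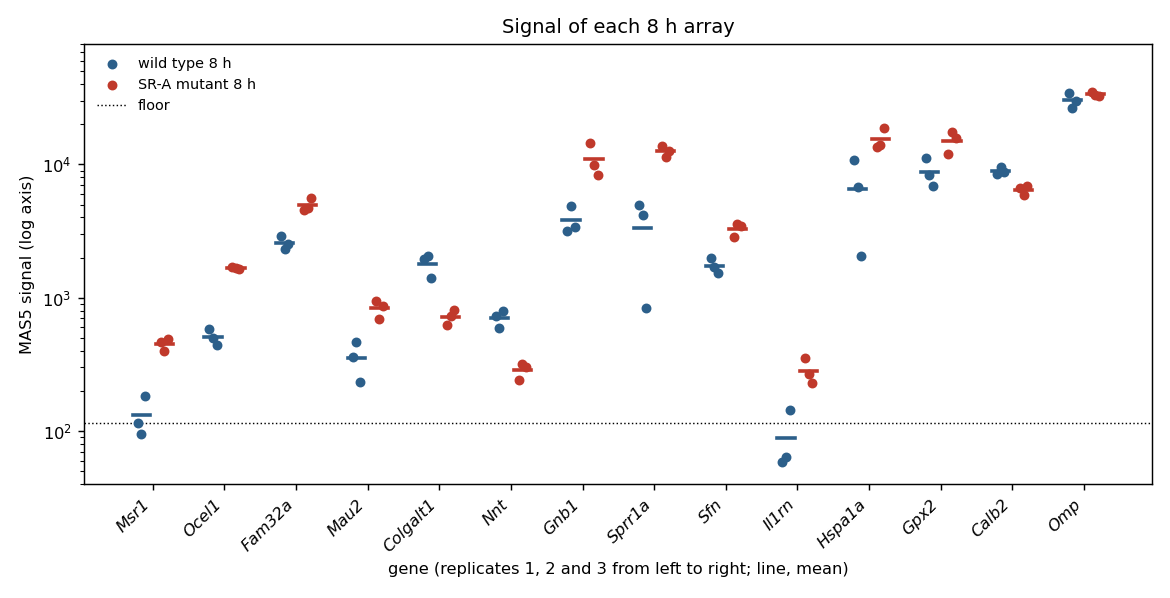
MAS5 signal (log axis) of each of the 6 arrays at 8 h for 14 genes, mutant-labelled in red and wild-type-labelled in blue, with a line at each mean and the signal floor of 115.9 dotted. Ocel1, Colgalt1 and Nnt separate the labels with little spread, while Sprr1a and Hspa1a spread widely among the wild-type-labelled arrays, with replicate 3 lowest at 844.9 and 2049.5.

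A larger share of probe sets passed on chromosome 8, where Msr1 lies. Of its 350 tested probe sets with 1 gene, 39 passed (11.1%), against 380 of 5918 on all other chromosomes (6.42%), and 11 of the 39 passed at all 4 times in the same direction. Within 20 Mb of Msr1 10 of 54 passed (18.5%). No test was made of these shares. The count of 39 was 24, 15 and 16 without mutant-labelled replicate 1, 2 or 3 and 17 without wild-type-labelled replicate 3.

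Closest to Msr1 were Mtmr7, a phosphoinositide phosphatase, at -1.03 ± 0.23 (adjusted p = 0.0136), and Asah1, lysosomal acid ceramidase, at -0.78 ± 0.14 (adjusted p = 0.00255). Asah1 gave 1936.4, 1835.0 and 1670.6 against 2655.5, 3405.5 and 3353.6, with no overlap. Also lower within 20 Mb were the F-box protein gene Fbxo8 (-0.89 ± 0.26), the dynactin subunit Dctn6 (-0.62 ± 0.17), Gm8096 (-0.62 ± 0.11), the membrane-cytoskeleton linker Ank1 (-0.48 ± 0.13) and Saraf, a regulator of store-operated calcium entry (-0.43 ± 0.10). Higher were Golga7, a partner of a palmitoyltransferase (0.65 ± 0.10), the secreted Wnt antagonist Sfrp1 (0.65 ± 0.18) and glutathione reductase Gsr (0.46 ± 0.10). Of these 10 genes Fbxo8 and Sfrp1 passed in the same direction at all 4 times. At 8 h, however, Fbxo8 (adjusted p = 0.0447) lost its call whichever of the 6 arrays was left out. Ank1 kept its call in 1 of these 6 fits and Dctn6 in 2, while Asah1, Gm8096, Golga7 and Gsr kept theirs in all 6. The other tested Ank1 probe set gave -0.40 (adjusted p = 0.116).

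A second stretch, 70 to 80 Mb along the chromosome, held 10 calls among 58 tested probe sets, 5 of them at all 4 times, and included Ocel1, Colgalt1 and Fam32a. Fam32a (chr8:72219745-72225034), a gene of unsettled function, gave 4525.4, 4742.2 and 5565.4 against 2907.5, 2310.6 and 2537.0 on its brightest probe set. The mutant-labelled arrays were all higher, by 0.94 ± 0.10 (adjusted p = 4.54e-06), and its other tested probe sets gave 0.97 and 0.25. Mau2, the cohesin loader subunit (chr8:70014527-70042734), was higher by 1.29 ± 0.20 (adjusted p = 0.00126). Gatad2a, a subunit of the NuRD chromatin complex, gave -0.92 ± 0.17, but its other tested probe sets gave 0.37 and -0.47. The probe set at 0.37 passed too, in the opposite direction (adjusted p = 0.0414). At the other end of the chromosome Tfdp1, the dimer partner of E2F factors, was lower, at -0.78 ± 0.13 (adjusted p = 0.00155), while its other tested probe set gave 0.18.

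**Figure D2:**
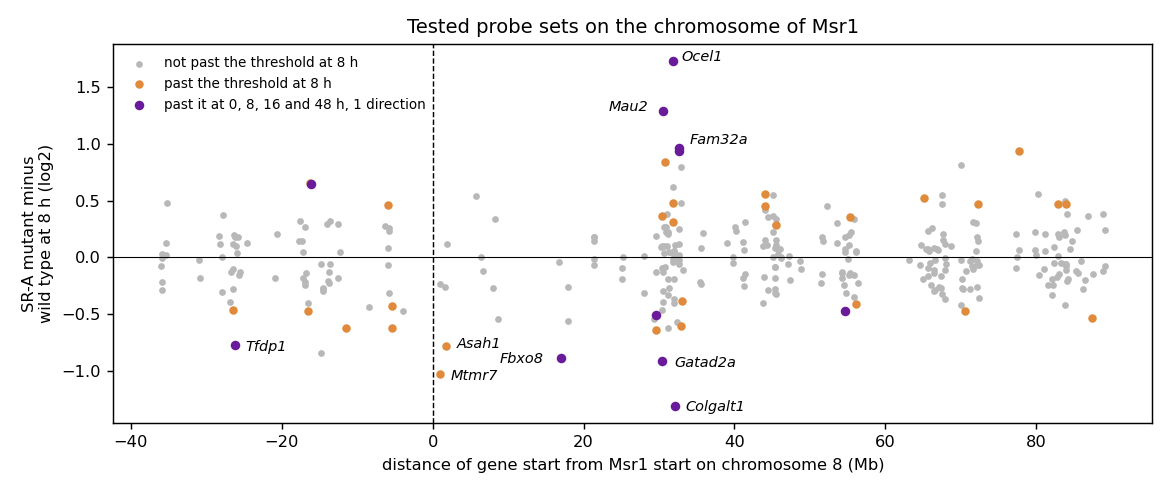
Log2 difference, mutant-labelled minus wild-type-labelled at 8 h, of each tested probe set on chromosome 8 against the distance of its gene's start from the start of Msr1 in Mb. Orange points passed the threshold at 8 h and purple points passed it in the same direction at 0, 8, 16 and 48 h; Ocel1 (1.73) and Colgalt1 (-1.31) lie about 32 Mb from Msr1.

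A few genes of the injured epithelium were higher in the mutant-labelled arrays, led by Sprr1a. Sprr1a encodes a small proline-rich protein that is cross-linked into the cornified envelope and is induced by injury in epithelia and neurons (chr3:92483954-92485881). It gave 13825.0, 11371.8 and 12510.1 in the mutant-labelled arrays and 4941.6, 4177.3 and 844.9 in the wild-type-labelled arrays. The groups did not overlap, but wild-type-labelled replicate 3 lay far below its 2 partners. The difference was 2.27 ± 0.51, or 4.83-fold (adjusted p = 0.0127), and 1.46 (adjusted p = 0.0773) without that array. At 0, 16 and 48 h it was -0.08, 0.36 and -1.71.

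The promoter window of Sprr1a (RefSeq, GRCm38.p6, chr3:92485832-92486131, minus strand, 250 bases before to 50 after the start) is shown because it holds 2 matches to the AP-1 heptamer, in capitals. AP-1 is the Fos and Jun dimer, and Fos and Jun were measured on the same arrays. TGAGTCA or its reverse complement TGACTCA occurs in 5.2% of 32851 such mouse windows.
Sprr1a: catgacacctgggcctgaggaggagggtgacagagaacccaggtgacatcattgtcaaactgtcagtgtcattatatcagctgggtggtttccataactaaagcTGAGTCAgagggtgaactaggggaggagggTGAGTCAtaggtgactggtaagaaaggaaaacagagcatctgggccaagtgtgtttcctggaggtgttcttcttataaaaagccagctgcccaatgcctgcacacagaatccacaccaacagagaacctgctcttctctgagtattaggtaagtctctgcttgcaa

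Of 15 tested genes of the cornified envelope and epithelial injury, 3 were higher and none lower, 10 had a positive difference and 5 a negative one, and the median was 0.44, against 6.42% of all 5356 tested genes called (3.14% higher and 3.29% lower), 48.7% of them with a positive difference, and a median of -0.01. Besides Sprr1a these were Sfn, the epithelial 14-3-3 sigma, and the cornified envelope protein gene Lor. Sfn gave 2845.1, 3590.2 and 3466.9 against 1994.3, 1699.8 and 1537.0. Its difference was 0.92 ± 0.21 (adjusted p = 0.0151), and that of Lor was 0.44 ± 0.13 (adjusted p = 0.0463). At 0 h Sfn gave 0.33 and Lor 0.40, with Lor past the threshold there too (adjusted p = 0.0313). Without wild-type-labelled replicate 3 none of the list passed, and without mutant-labelled replicate 2 or 3 a single gene did. Sprr2f gave 1098.8, 673.5 and 574.2 against 488.0, 529.0 and 371.3, a difference of 0.72 ± 0.56 (adjusted p = 0.449). Cldn4, a tight-junction claudin, and the keratin Krt6a gave 0.71 ± 0.40 and 0.65 ± 0.50, and at the other end the keratin Krt6b and Sprr2g gave -0.22 ± 0.19 and -0.23 ± 0.16, none past the threshold. Of the 15 genes, 6 of the 10 with a promoter window held the AP-1 heptamer, among them Sprr1a and Lor.

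Outside that list, Anxa8, a calcium-dependent membrane-binding annexin, was among the largest rises at 1.20 ± 0.31 (adjusted p = 0.0266), with 4429.2, 5777.4 and 5850.8 against 3335.3, 2072.4 and 1780.3. The lowest mutant-labelled array lay above the highest of the others. Cldn7, another claudin, was higher by 0.36 ± 0.11 (adjusted p = 0.0443), and at 0 h by 0.30 (adjusted p = 0.0434). Of 11 acute phase and epithelial defence genes none passed, against 6.42% of all tested genes, with a list median of 0.26. Lcn2, which encodes the iron-siderophore binding lipocalin 2, gave 13492.1, 12831.0 and 13757.0 against 19245.7, 18943.7 and 5808.9. The mutant-labelled values lay between the extremes of the wild-type-labelled ones, and the difference was 0.06 ± 0.28 (adjusted p = 0.923), -0.52 without wild-type-labelled replicate 3 and -0.03 after quantile normalization. Slpi, a secreted protease inhibitor, gave -0.14 ± 0.16 (adjusted p = 0.636).

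Several heat shock chaperones were higher in the mutant-labelled arrays, with the wild-type-labelled arrays far apart from each other. Of 20 tested, 4 were higher and 1 lower (over all tested genes 3.14% and 3.29%), 18 had a positive difference (48.7% over all), and the median was 0.32. Hspa1a, the inducible HSP70 (chr17:34969359-34972156), gave 13445.2, 14069.4 and 18733.0 against 10848.9, 6811.8 and 2049.5. All 3 mutant-labelled arrays were higher, by 1.52 ± 0.46 (adjusted p = 0.0485), and by 0.83 (adjusted p = 0.264) without wild-type-labelled replicate 3. Hspa1b, its near-identical neighbour whose transcripts the probes may not tell apart, gave 1.34 ± 0.43 (adjusted p = 0.0602).

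Hsp90aa1, the inducible cytosolic HSP90, gave 32484.2, 28350.4 and 30200.6 against 21292.8, 19107.4 and 16151.6, a difference of 0.69 ± 0.17 (adjusted p = 0.0219). The groups did not overlap. Hspd1, the mitochondrial chaperonin HSP60, gave 19182.8, 16875.3 and 17000.3 against 16481.9, 8384.3 and 9239.0, a difference of 0.70 ± 0.18 (adjusted p = 0.0239). Here the highest wild-type-labelled array came close to the lowest mutant-labelled array. The small heat shock protein gene Hspb8 was higher by 0.39 ± 0.12 (adjusted p = 0.0491), and Cct2, a subunit of the cytosolic chaperonin, was lower, at -0.44 ± 0.12 (adjusted p = 0.0391). Leaving out any 1 of the mutant-labelled arrays or wild-type-labelled replicate 3 left none of the 20 past the threshold. At 0, 16 and 48 h the medians of the list were -0.10, -0.11 and -0.12.

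The promoter windows of Hspa1a (chr17:34972107-34972406, minus strand) and Hspd1 (chr1:55087883-55088182, minus strand) are shown with matches to the heat shock element, to which the factor HSF1 binds, in capitals. It was searched as GAANNTTC and TTCNNGAA, which read the same on both strands and can overlap each other. It occurs in 15.1% of all windows of this length and in 10 of the 16 chaperone genes with a window, among them Hspa1a, Hspd1 and Hspb8.
Hspa1a: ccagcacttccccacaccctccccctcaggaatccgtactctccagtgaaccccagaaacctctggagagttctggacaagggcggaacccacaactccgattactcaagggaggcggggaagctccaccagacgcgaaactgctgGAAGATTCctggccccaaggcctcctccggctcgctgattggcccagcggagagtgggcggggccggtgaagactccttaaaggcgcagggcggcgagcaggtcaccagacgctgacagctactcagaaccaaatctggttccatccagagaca
Hspd1: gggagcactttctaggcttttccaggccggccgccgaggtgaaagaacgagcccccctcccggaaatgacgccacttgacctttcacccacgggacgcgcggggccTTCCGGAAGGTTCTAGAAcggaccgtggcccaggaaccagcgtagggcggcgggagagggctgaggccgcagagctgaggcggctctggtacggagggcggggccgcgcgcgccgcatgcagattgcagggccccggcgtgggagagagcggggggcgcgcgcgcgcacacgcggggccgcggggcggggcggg

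Genes of glutathione and thioredoxin metabolism moved in both directions. Of 33 oxidative stress and conjugation genes 4 were higher and 1, Nnt, was lower, with a median of 0.07. Of all tested genes 3.14% were higher and 3.29% lower. Outside this count the glutathione transferase genes Gstm2 (-1.19) and Gstm3 (-0.67) each had a probe set that was lower, and no such gene had one that was higher. Gpx2, the epithelial glutathione peroxidase, gave 11935.3, 17361.3 and 15827.0 against 11146.3, 8332.7 and 6895.1, a difference of 0.79 ± 0.23 (adjusted p = 0.0456). The groups were apart by a narrow gap. At 0 h the difference was 0.78 (adjusted p = 0.0193). Gclm, the regulatory subunit of the enzyme that begins glutathione synthesis, gave 6238.7, 7278.1 and 7934.8 against 6402.0, 5140.3 and 3086.0. Its groups overlapped, and its difference of 0.61 ± 0.18 (adjusted p = 0.0485) was 0.31 (adjusted p = 0.264) without wild-type-labelled replicate 3.

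Gsr, which regenerates reduced glutathione, gave 5950.4, 6390.3 and 6054.3 against 4864.7, 3973.1 and 4591.7, a difference of 0.46 ± 0.10 (adjusted p = 0.00892) that kept its call without any 1 of the 6 arrays. The thioredoxin reductase gene Txnrd1 was higher by 0.39 ± 0.10 (adjusted p = 0.0223). Other genes known to respond to the factor Nrf2 gave 0.58 ± 0.23 for Srxn1 (adjusted p = 0.119), 0.08 ± 0.26 for Hmox1 (adjusted p = 0.882) and 0.00 ± 0.19 for Nqo1 (adjusted p = 0.993). The promoter window of Gclm (chr3:122245307-122245606, plus strand) held 1 match, in capitals, to the core of the antioxidant response element that Nrf2 binds, TGACNNNGC on either strand. The core occurs in 12.4% of all windows and in 7 of the 26 genes of this list with a window, Gclm and Txnrd1 among them.
Gclm: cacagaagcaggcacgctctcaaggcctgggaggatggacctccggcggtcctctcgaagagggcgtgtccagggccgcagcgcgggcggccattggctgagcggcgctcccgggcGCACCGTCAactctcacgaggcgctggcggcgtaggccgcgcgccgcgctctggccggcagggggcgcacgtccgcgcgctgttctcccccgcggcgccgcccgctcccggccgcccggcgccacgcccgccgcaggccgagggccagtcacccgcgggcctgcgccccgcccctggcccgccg

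Among signalling genes and transcription factors at most 2 members of a list passed, against 6.42% of all tested genes. None of 17 NF-kappaB and TNF pathway, 14 circadian clock and 14 glucocorticoid responsive genes did. Outside these counts, of genes that signal to NF-kappaB, Irak1 was higher (0.45, adjusted p = 0.0127) and Tab3 lower (-0.53, adjusted p = 0.034). Cebpb, a factor of the inflammatory and acute phase response, gave 7314.2, 8474.4 and 8227.7 against 5099.7, 5013.2 and 5295.6. The groups lay well apart, the difference was 0.64 ± 0.10 (adjusted p = 0.00127), and it held without any 1 of the 6 arrays. At 0 h the difference was 0.74 (adjusted p = 8.23e-05), and 8 h minus 0 h gave -0.10 ± 0.14. Cebpb was the 1 of 8 C/EBP and AP-1 related factors to pass (median 0.28). Il1rn, the interleukin 1 receptor antagonist (chr2:24336860-24351491), gave 352.0, 266.9 and 229.9 against 58.9, 63.9 and 143.6. With 2 wild-type-labelled arrays under the floor it was at least 2.24-fold higher (1.16 ± 0.24, adjusted p = 0.0093). It was the 1 of 14 cytokines and receptors to pass, and none of 8 chemokines did.

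Among 22 immediate early genes Gadd45b, a stress-induced growth arrest gene, was higher by 0.75 ± 0.20 (adjusted p = 0.0279), while 16 of the 22 had a negative difference (median -0.18). Fos gave 1193.4, 916.4 and 932.9 against 1534.4, 843.5 and 3104.1. The wild-type-labelled values spanned the others, and the difference was -0.66 ± 0.35 (adjusted p = 0.249). Jun gave 0.32 ± 0.19 (adjusted p = 0.299). Of 19 interferon-stimulated genes 2 were higher, against 3.14% of all tested genes. They were Irf9, a subunit of the interferon-activated factor ISGF3, by 0.55 ± 0.14, and the surface protein gene Ly6e, by 0.50 ± 0.14. Ndrg1, induced by hypoxia, was higher by 0.78 ± 0.19 (adjusted p = 0.0213) and was the 1 of 20 glycolysis and hypoxia genes to pass.

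A few genes of mitochondrial respiration and of the ribosome were slightly higher. Of 46 oxidative phosphorylation genes 5 were higher and none lower, against 3.14% and 3.29% of all tested genes. Outside this count Ndufv2 of complex I was lower (-0.5, adjusted p = 0.0337), while Ndufb2 of complex I (0.41) and Atp5md of ATP synthase (0.65) were higher. At 0 h 27 of the 46 were higher and 1 lower, where 23.4% of all tested probe sets passed. Of the 46, 36 had a positive difference (48.7% of all tested genes did). The median was 0.20, against 0.32, 0.19 and 0.29 at 0, 16 and 48 h. Atp5l, an ATP synthase subunit gene, gave 25880.1, 24907.8 and 24048.1 against 18188.1, 17861.2 and 18502.6, a difference of 0.46 ± 0.12 (adjusted p = 0.027). The arrays of each label lay within a narrow band, but the other tested Atp5l probe set gave -0.04. Uqcrh of complex III and Ndufb8 of complex I were higher by 0.38 ± 0.09 and 0.35 ± 0.10. Of 22 cytosolic ribosomal protein genes Rpl19 and Rps18 were higher, by 0.42 ± 0.08 and 0.33 ± 0.10 (median of the 22, 0.14). The 5 oxidative phosphorylation calls became 0 without mutant-labelled replicate 2, 2 without mutant-labelled replicate 1 or 3 or wild-type-labelled replicate 3, and 3 without either of the other arrays.

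Neuronal genes passed in both directions. Of 17 genes of mature olfactory sensory neurons 1 was higher and 1 lower (6.42% of all tested genes passed), with a median of 0.00. The lower one was Calb2, which is also on the synaptic list below. Omp, the olfactory marker protein, gave 35152.4, 33422.0 and 32583.5 against 34452.9, 26602.7 and 29681.7. The groups overlapped, with a difference of 0.16 ± 0.11 (adjusted p = 0.363). Gnb1, a G protein beta subunit (chr4:155491300-155559269), was higher by 1.50 ± 0.25 (adjusted p = 0.00155), with 14520.2, 9909.0 and 8396.7 against 3147.0, 4908.0 and 3422.1. The mutant-labelled arrays were far above the others, but its other tested probe sets gave 0.63 and 0.32. At 0 h the first probe set differed by 1.42 (adjusted p = 0.000737). In whole tissue fewer cells of a type and less RNA per cell cannot be told apart.

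Calb2, the calcium-binding calretinin, gave 6620.2, 5850.4 and 6905.1 against 8536.9, 9555.7 and 8837.6, a difference of -0.48 ± 0.12 (adjusted p = 0.0217). All 3 mutant-labelled arrays were lower. It was the 1 of 17 synaptic vesicle and neuronal genes to pass, against 6.42% of all tested genes. Of these 17 genes 14 had a negative difference, with a median of -0.24. Over all tested genes 48.7% had a positive difference. Outside this count probe sets of other synaptic genes passed in both directions. Snap91 (-0.67), Pclo (-0.68) and Cadps (-0.62) were lower, and Homer3 (0.84) and Grik5 (1.47) were higher. Of 23 genes of immature neurons and axon growth, Dpysl3, a growth-cone protein gene, and Gpm6b, a membrane glycoprotein gene, were lower, at -0.70 ± 0.18 and -0.58 ± 0.17. Gap43, the growth-associated protein of immature neurons, gave -0.38 ± 0.22 (adjusted p = 0.299). Stmn2, another marker of immature neurons, went the other way, at 0.37 ± 0.17 (adjusted p = 0.169). Of the 23 genes 16 had a negative difference and 7 a positive one, with a median of -0.1.

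Progenitor and cell cycle genes also passed in both directions, with list medians of 0.07 and -0.07. Of all tested genes 6.42% passed, 3.14% higher and 3.29% lower. Of 17 genes of neural progenitors and basal cells, Hes1, the Notch effector, and Cdkn1c, a cell cycle inhibitor, were higher, by 0.55 ± 0.16 and 0.47 ± 0.14, and the receptor gene Kit was lower, at -0.45 ± 0.13. The arrays of Hes1 overlapped, and with any 1 of the 6 arrays left out at most 1 gene of this list passed. Of 27 cell cycle and replication genes the helicase subunits Mcm3 and Mcm4 were lower, at -0.53 ± 0.13 and -0.48 ± 0.12. Pold2, a DNA polymerase delta subunit, gave 1292.2, 1303.2 and 1422.1 against 801.5, 866.3 and 353.2, a difference of 1.10 ± 0.25 (adjusted p = 0.0152) and 0.68 (adjusted p = 0.0899) without wild-type-labelled replicate 3. Casp2, an initiator caspase and the 1 of 21 apoptosis genes to pass, was lower, at -0.49 ± 0.08 (adjusted p = 0.00154), and it kept its call without any 1 of the 6 arrays. Outside this count a probe set of Bad, of the Bcl2 family, was lower too, at -0.57 (adjusted p = 0.0292).

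Macrophages are the cells in which SR-A is best known. The tested macrophage and myeloid genes had 11 positive and 6 negative differences, with a median of 0.2. Of 17 macrophage and myeloid genes 1 passed, against 6.42% of all tested genes. It was Laptm5, a lysosomal membrane protein gene of blood cells, at -0.42 ± 0.11 (adjusted p = 0.0352). Its other probe set passed in the opposite direction, at 0.54 (adjusted p = 0.0239). Cd68 gave 857.6, 1086.8 and 960.0 against 1246.6, 933.1 and 1018.8. The groups overlapped, and the difference was -0.14 ± 0.16 (adjusted p = 0.626). Csf1r, the macrophage growth factor receptor, gave -0.03 ± 0.14, and Lyz2 and Mrc1 gave 0.71 ± 0.28 and 0.59 ± 0.22, not past the threshold. Of 26 lysosomal genes Asah1 and the protease gene Lgmn were lower (-0.51 ± 0.16 for Lgmn) and Hexa, a subunit of beta-hexosaminidase, was higher by 0.50 ± 0.14. None of 8 neutrophil genes passed.

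Of 7 tested genes of B and plasma cells 1 was higher in the mutant-labelled arrays (3.14% of all tested genes were), the immunoglobulin gene Igkv6-23. This kappa chain variable segment gave 2979.9, 6515.7 and 4073.8 against 1336.5, 1195.4 and 599.7. The groups did not overlap, and the difference was 2.12 ± 0.54, or 4.35-fold (adjusted p = 0.0239). Probes for an immunoglobulin segment can bind transcripts of related segments. Igha, Ighm and Jchain gave 1.60 ± 0.58 (adjusted p = 0.0932), 1.76 ± 0.59 (adjusted p = 0.0712) and 1.06 ± 0.43 (adjusted p = 0.132). The signals of the 7 genes summed to 9447 to 19277 in the mutant-labelled and 3806 to 7470 in the wild-type-labelled arrays. Their median of 1.06 compares with 2.87, 0.07 and 2.97 at 0, 16 and 48 h, and the part of these cells in other differences was not tested.

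**Figure D3:**
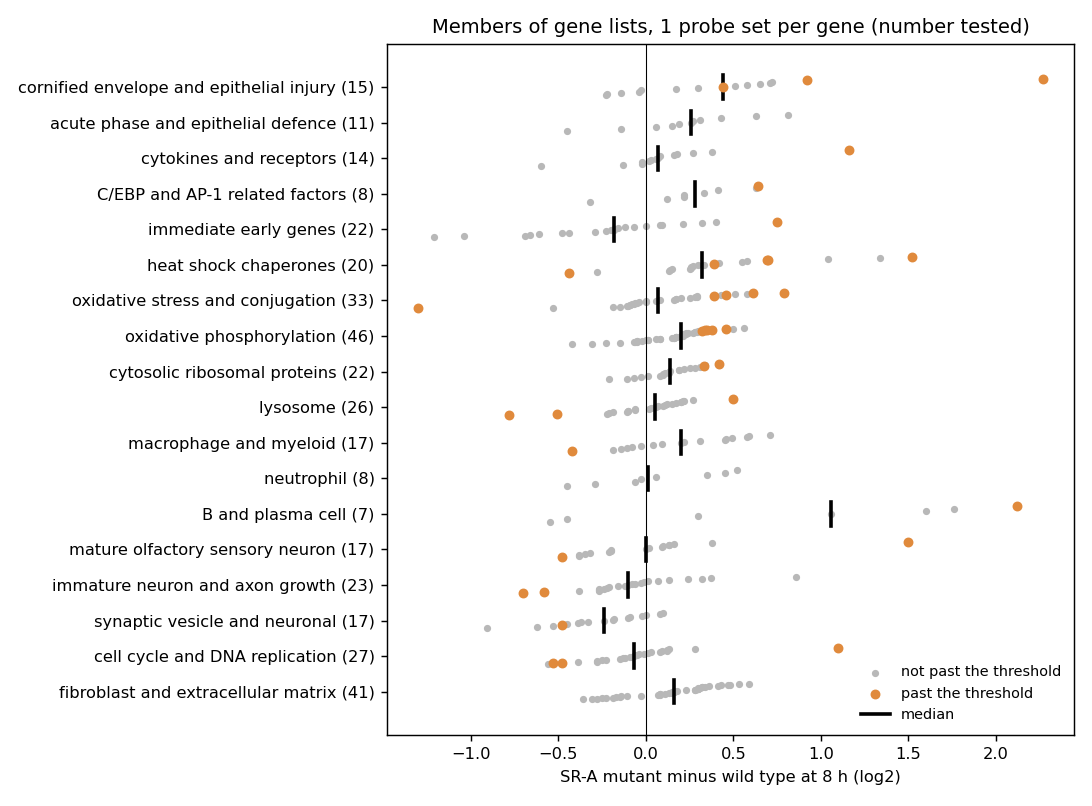
Log2 difference, mutant-labelled minus wild-type-labelled at 8 h, of each tested member of 18 gene lists, with 1 probe set per gene and the number tested in brackets; orange points passed the threshold and black lines are list medians. Heat shock, injury and immunoglobulin genes lie mostly above 0 (medians 0.32, 0.44 and 1.06), and most lists hold no more than 1 or 2 genes past the threshold.

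The rest of the 12 largest rises and 12 largest falls, taken from the brightest probe set of each gene, fell in genes of varied function. Higher were Grik5, a kainate receptor subunit (1.47 ± 0.43), Gmppb, which makes GDP-mannose (1.23 ± 0.33), and the protein phosphatase Ppp5c (1.05 ± 0.30). The other tested Grik5 probe set gave 0.19, and for Grik5 and Gmppb 1 wild-type-labelled array lay under the floor. Lower were the casein gene Csn3 (-1.09 ± 0.32), the secreted growth factor Ptn (-0.99 ± 0.26), Sos1, which activates Ras (-0.98 ± 0.28), Stt3a, a catalytic subunit of oligosaccharyltransferase (-0.93 ± 0.27), the motor protein Myo5a (-0.87 ± 0.23), the junctional adhesion molecule Jam3 (-0.86 ± 0.23) and the mucin Muc13 (-0.79 ± 0.20). Differences of this size on dimmer probe sets of other genes included -1.19 for Gstm2, -1.04 for Actb, -1.04 for Ccni, -0.98 for Nudcd2, -0.92 for Myo5b and 1.19 for Actn1. Each of the 10 named first lost its call in at least 1 fit without an array. Of the 77 named probe sets past the threshold, 28 kept their call in all 6 such fits and 30 without wild-type-labelled replicate 3.

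The genotype difference at 8 h largely had the direction it had at 0 h. Of the 475 probe sets 447 (94.1%) had the same sign at 0 h, against 71.7% of all tested, and 284 also passed there in the same direction. This is 59.8% of the 8 h calls and 17.6% of the 1618 calls (23.4%) at 0 h, and of all tested probe sets 21.1% passed at 0 h in the direction they had at 8 h. A single probe set passed in the opposite direction. The medians of the probe sets higher and lower at 8 h were 0.53 and -0.52 at 8 h and 0.41 and -0.44 at 0 h. No probe set passed a test of the difference at 8 h minus that at 0 h (0% of 6917; lowest adjusted p 0.0641 in limma), with 705 at an unadjusted p under 0.05 (10.2%), and none of the listed genes did. Among the named genes 9 differences of differences were larger than 1 on the log2 scale, none past the threshold. They were 2.35 ± 0.72 for Sprr1a, 2.28 ± 0.65 for Hspa1a, 1.64 ± 0.79 for Sprr2f, 1.63 ± 0.61 for Grik5, 1.58 ± 0.40 for Lcn2, 1.37 ± 0.35 for Il1rn and 1.13 ± 0.25 for Hspd1, and in the other direction -2.06 ± 0.76 for Igkv6-23 and -1.39 ± 0.49 for Fos. Their adjusted p-values lay between 0.124 (Hspd1) and 0.494 (Sprr2f).

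**Figure D4:**
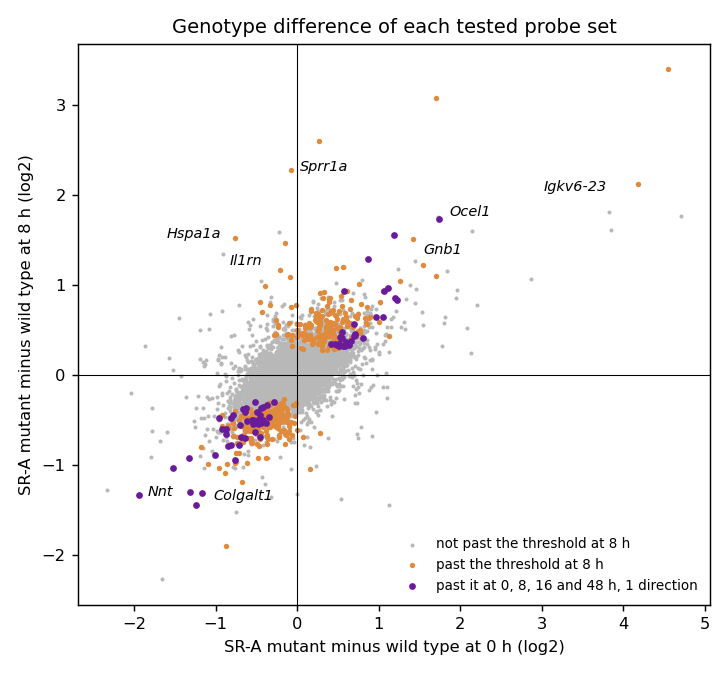
Log2 difference, mutant-labelled minus wild-type-labelled, of each of 6917 tested probe sets at 0 h (horizontal axis) and at 8 h (vertical axis), from separate arrays. Orange probe sets passed at 8 h and purple ones at 0, 8, 16 and 48 h in the same direction; Ocel1 lies at 1.74 and 1.73, while Sprr1a lies at -0.08 and 2.27.

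The 8 h calls were also looked up at the later times. At 16 h 371 of the 475 had the same sign (78.1%, against 59.1% of all tested) and 123 passed in the same direction (8.72% of all tested did), while 6 passed in the opposite direction. At 48 h 357 had the same sign (75.2%, against 60.0%), 144 passed in the same direction (13.4% of all tested did) and 19 in the opposite one. The calls at 16 h were 780 (11.3%) and those at 48 h 1385 (20%). Of the 475, 134 passed at no other of these times.

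The test of 8 h minus 48 h called 379 probe sets (5.48%), 221 higher (3.2%) and 158 lower (2.28%), and that of 8 h minus 16 h called 49 (0.708%). Both tests were added after the data had been seen. Of the 379, 71 were also among the 475 calls at 8 h. Il1rn was higher in the mutant-labelled arrays at 8 h and lower at 48 h (-2.59 ± 0.24), a change of 3.75 ± 0.35 (adjusted p = 6.66e-07). Sprr1a went from 2.27 at 8 h to -1.71 at 48 h, Sfn from 0.92 to -0.99, Gpx2 from 0.79 to -1.30 and Cebpb from 0.64 to -0.49. Before that, at 0 h, these genes gave -0.08, 0.33, 0.78 and 0.74. The median of the injury list was 0.44 at 8 h and -0.99 at 48 h. Calb2 was lower at 0 and 8 h (-0.62 and -0.48) and gave 0.14 and 0.12 at 16 and 48 h.

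**Figure D5:**
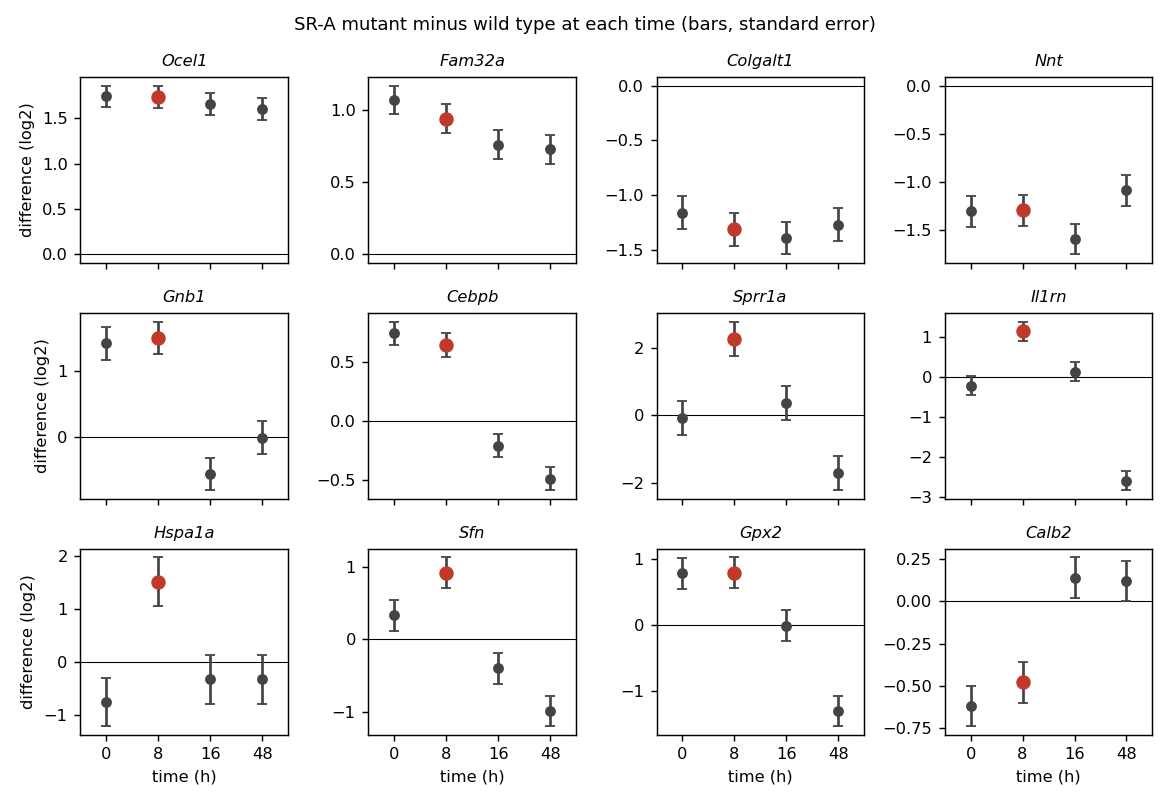
Log2 difference, mutant-labelled minus wild-type-labelled, at 0, 8, 16 and 48 h for 12 genes, with standard errors from the fit as bars (3 arrays per label and time) and the 8 h value in red; each panel has its own vertical scale. Ocel1, Fam32a, Colgalt1 and Nnt keep their difference at all 4 times, whereas Sprr1a, Il1rn, Sfn and Gpx2 are above 0 at 8 h and below it at 48 h.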

How the data were processed

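The authors deposited linear MAS5 signal intensity values, 1 per probe set and array, of Affymetrix MG-U74Av2 arrays; the submitters' processing notes name MAS5, with a version not given in the sources used here. On each array the 2% trimmed mean lay between 1500.7 and 1500.9, so the values had been scaled. Detection calls were not used here. The number of arrays limits the precision.

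Signals under 115.9, the 25th percentile of the 27 arrays in the fit, were set to that floor, and log2 was taken. Of 12488 probe sets (66 controls) 6917 had at least 3 of the 27 arrays above the median of 578.5 and were tested. With limma 3.58.1 in R 4.3.3, means of 9 genotype and time groups were fitted with moderated variances, and p-values were adjusted by Benjamini-Hochberg over all tested probe sets. Errors beside differences are standard errors. Folds of named genes come from the log2 difference after the floor. Gene names came from the platform's probe table, where 10833 probe sets had 1 gene, 396 several and 1193 none; 10817 were matched to RefSeq GRCm38.p6 for positions. Lists used the brightest tested probe set of each gene. Promoter windows came from RefSeq.

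The members and gene lists were chosen with earlier results of these data known. Named genes were, of probe sets past the threshold with no overlap of arrays, the 12 highest and the 12 lowest by difference on the brightest probe set of a gene, up to 3 called members of each list, the calls within 20 Mb of Msr1, the 20 smallest p-values among probe sets called at all 4 times, and 10 genes given whatever their values (Msr1, Nnt, Lcn2, Slpi, Sprr1a, Sprr2f, Omp, Gap43, Cd68 and Fos). Other list members were named after their values were seen. Probe sets with several genes or none were not named.

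On simulated data 94% of 2-fold and 99% of 4-fold changes at 8 h were recovered, with 14 unchanged probe sets called. For 8 h minus 0 h the shares were 74% and 98%, with 8. The simulation drew normal noise with 1 spread per probe set, shared by all groups, and set no genotype difference at 0 h. It did not cover the wider spread of the wild-type-labelled 8 h arrays, or changes as small as the median call of 0.53. These shares therefore do not give the recovery in the real arrays. Alternatives were no filter, a pseudocount of 16, quantile normalization, a replicate block, a variance trend, other sets of arrays, a 2-fold minimum and each array left out.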

Additional observations from a re-analysis of the deposited data

Results flagged for a closer look

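Some genotype differences at 8 h were not those at later times. The test of the difference itself, mutant-labelled minus wild-type-labelled at 8 h minus the same at 48 h, passed for 379 probe sets, and against 16 h for 49. With its sign counted, the 8 h difference of some named genes lay above that at 48 h on the log2 scale. The gap was 5.07 for Sprr2f, 3.98 for Sprr1a, 3.75 for Il1rn, 2.09 for Gpx2, 1.91 for Sfn and 1.91 for Anxa8. It was 1.53 for Gnb1, 1.13 for Cebpb, 1.01 for Cldn7, 1.01 for Gclm, 0.78 for Gsr and 0.66 for Golga7. In size, however, the difference was larger at 48 h for Il1rn (1.16 at 8 h, -2.59 at 48 h), Gpx2 (0.79, -1.3), Sfn (0.92, -0.99) and Cldn7 (0.36, -0.65). The same held for Sprr2f, which did not pass at 8 h. For the others in this group it was larger in size at 8 h. The 8 h difference lay below that at 48 h for Gm8096 (gap -0.68), Ank1 (-0.64), Calb2 (-0.60) and Casp2 (-0.42).

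Msr1, which was outside the tested probe sets, gave a mean signal of 451 in the mutant-labelled arrays at 8 h, above that of the wild-type-labelled arrays.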

How the results depend on the processing

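At 8 h the 475 calls became 203 with all 30 arrays, 13 with only the arrays compared and 29 with a 2-fold minimum, and 109 to 565 when an array was left out. On chromosome 8 the 39 calls became 18, 2 and 4, and 15 to 37 when an array was left out. For 8 h minus 0 h, 1 probe set passed with no filter on low signals, and 0 to 4 when an array was left out. With a 2-fold minimum the calls at 0, 16 and 48 h were 88, 49 and 181, and with only the arrays compared 388 at 16 h and 335 at 48 h. Leaving out an array gave 985 to 1381 at 0 h, 373 to 707 at 16 h and 816 to 1500 at 48 h. Lcn2 (-0.52 to 0.35 when an array was left out) turned to -0.03 after quantile normalization and to -0.52 without wild-type-labelled replicate 3, and Omp to -0.00 after quantile normalization. Of the 84 named probe sets, 84 kept their side of the threshold and direction with a pseudocount, 82 with a variance trend, 66 after quantile normalization, 53 without the filter and 51 with all 30 arrays. The causes were not tested. Dim probe sets such as Msr1 have values near the floor, which limits what can be said of them.

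With the replicate number as a replicate block 411 probe sets passed at 8 h, 398 of them among the 475, and 38 on chromosome 8; 10 named probe sets lost their call. Deviations of same-numbered arrays at 8 h correlated at -0.18, -0.20 and -0.12, so the numbers were not taken to pair the arrays.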

Other observations

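Several cell types and processes showed few or no genes past the threshold at 8 h, against 6.42% of all tested genes. None of 41 fibroblast and extracellular matrix genes passed, though 30 had a positive difference (median 0.16), with the membrane-anchored collagenase gene Mmp14 at 0.59 ± 0.19 (adjusted p = 0.0645). None of 21 genes of xenobiotic enzymes of sustentacular and gland cells passed (median 0.12), and the detoxifying enzyme genes Cyp1a2 and Cyp2f2 gave 0.27 ± 0.19 and 0.15 ± 0.12. None of 8 MHC class II genes passed, 7 of them with a negative difference (median -0.17). Of 17 genes of endoplasmic reticulum stress Dnajc3, an inhibitor of the kinase PERK, was lower at -0.32 ± 0.09 (adjusted p = 0.0446), while its other probe sets gave 0.21 and 0.37. Igf2, a growth factor gene, was the 1 of 8 genes of the insulin-like growth factor axis to pass, higher by 0.41 ± 0.12 (adjusted p = 0.0447), with 0.51, 0.30 and 0.92 at 0, 16 and 48 h.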
